A study of Rattus norvegicus with 9 samples.

Results

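The genes of fatty acid oxidation and ketogenesis were followed in livers of male Sprague–Dawley rats that received vehicle, the hepatotoxin carbon tetrachloride (CCl4), or CCl4 together with rottlerin (CCl4+Rot). The set was a fixed list of 34 gene symbols, and each gene was read from a probe set of the array that names this gene alone, the one with the highest mean signal where there were several. In this way 32 of the 34 genes were found, out of 14377 genes that a probe set names alone. The fatty acid transporter Cd36 and the peroxisomal thiolase Acaa1a are named only by probe sets that name other genes as well, and were not analysed here. Each group held 3 livers from separate rats, 1 array per liver. CCl4 was injected into the peritoneum in olive oil for 8 weeks, and rottlerin, an activator of BK potassium channels, was given at 2.5 mg/kg from 2 weeks after the first CCl4 injection. No group received rottlerin without CCl4, and neither the age of the rats nor whether they were fed or fasted before sampling was given in the sources used here.

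Fatty acids are activated to acyl-CoA, carried into mitochondria by the carnitine shuttle, and shortened there by cycles of dehydrogenation, hydration, a second dehydrogenation and thiolysis, with electrons passed on through electron transfer flavoprotein. Peroxisomes shorten very long-chain and branched acids, and the liver turns surplus acetyl-CoA into ketone bodies for other organs. Many of these genes are targets of the nuclear receptor PPAR alpha, which binds DNA together with RXR at repeats of AGGTCA spaced by 1 base.

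Values are log2 signals as deposited, and a change is a difference of group means on the log2 scale from limma, with its standard error (SE) and a p-value adjusted over all 31042 probe sets tested. A gene was called changed when its adjusted p was under 0.05 and it differed 1.5-fold or more. Groups were said not to overlap when all 3 livers of one lay above all 3 of the other. An exact permutation test of 3 livers against 3 cannot give a two-sided p below 0.1.

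The set was well detected. Of the 32 genes, 29 were called present on all 9 arrays, against 36.2% of all probe sets, and none was absent from every array. All 12 measured hepatocyte markers were present on all 9 arrays, so the livers carried RNA of the cell type in which these enzymes mainly act. In whole liver, fewer hepatocytes and less RNA per hepatocyte cannot be told apart.

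One array stood apart. CCl4 replicate 3 had 12714 probe sets called present, against 15550 to 16849 on the other 8 arrays, and a median log2 signal of 7.81, against 6.79 to 7.01. Its probe sets present on all 9 arrays were level with the others (median 9.53, against 9.51 to 9.58), whereas the probe sets absent from the other 8 arrays read 5.72 there and 4.09 to 4.59 elsewhere. The results that turn on CCl4 livers are therefore given with and without this array.

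Of the 28 genes with a promoter window in RefSeq (assembly GRCr8, 250 bases before to 50 after the gene's start), Fabp1 was the only one that held the repeat of AGGNCA, in the same direction and with 1 base between, searched on both strands. This relaxed form occurred in 0.415% of 33469 promoters, and the strict form with AGGTCA in both places occurred in none of the 28 and in 0.0538% of all. A single AGGTCA, which a strict repeat also holds, was found in 6 of the 28 windows (Fabp1, Hadhb, Eci1, Acadvl, Eci2 and Hsd17b4), against 16.2% of all promoters. The 100 bases before the start of Fabp1 are shown because they hold this repeat, with the match, which reads on the opposite strand 77 to 65 bases before the start, in capitals. Those of Cpt1a are shown beside them because Cpt1a carried the lowest change of the set, and its window held neither repeat. These are matches of letters and not measured binding. Fabp1 lies at chr4:104749240-104749339 and Cpt1a at chr1:209996060-209996159, both on the plus strand.
Fabp1: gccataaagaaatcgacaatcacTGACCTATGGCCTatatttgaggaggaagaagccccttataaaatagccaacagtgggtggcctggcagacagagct
Cpt1a: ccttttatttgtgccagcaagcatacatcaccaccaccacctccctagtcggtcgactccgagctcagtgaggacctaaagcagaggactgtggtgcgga

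To determine how the pathway stood in CCl4 livers, the set was first compared between CCl4 and vehicle. Cpt1a, the entry enzyme of the carnitine shuttle, was lower in CCl4 livers, and Crat, Vnn1 and Acot1 were higher, while the dehydrogenases and later enzymes of the mitochondrial cycle differed by at most 0.39 on the log2 scale. In all, 24 of the 32 genes had lower means in CCl4 livers and 8 had higher means, with a median log2 change of -0.25. Over all probe sets the median was 0.18, and over those present on all 9 arrays it was -0.01, with 48.7% of them higher and 51.3% lower. No gene of the set was called, and limma called 0.0% of all probe sets in this comparison. At an unadjusted p below 0.05, 1 gene was higher (Crat) and 1 lower (Cpt1a), against 8.64% and 3.72% of all probe sets, and the lowest adjusted p was 0.252. Groups did not overlap for 3 genes that were higher and 6 that were lower, against 11.1% and 7.14% of all probe sets, and 11.2% and 14.2% of those present on all 9 arrays. When each array was centred on its median, 0 genes did not overlap upward and 11 downward, so that the separation of Crat, Vnn1 and Acot1 from vehicle was lost under this scaling.

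The downward median rested largely on CCl4 replicate 3. This liver was the lowest of all 9 for 20 of the 32 genes, whereas 25.1% of the probe sets present on all 9 arrays were lowest there. The median of those probe sets, 9.51 to 9.58 per array, lay below most genes of the set. Whether bright probe sets as a class read lower on this array was not tested. The median difference of the 32 genes from the vehicle mean was -0.19, 0.06 and -0.47 in CCl4 replicates 1 to 3, and lay between -0.03 and 0.03 in the vehicle livers. Without replicate 3, the median log2 change was -0.07, with 20 genes lower and 12 higher, and groups did not overlap for 7 lower and 5 higher genes. Under quantile normalization of all 9 arrays it was -0.10, with 21 lower. When each array was centred on its median, it was -0.61, but this centring also moved the median of the probe sets present on all 9 arrays to -0.37. With array weights, in which that array counted least, it was -0.01.

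**Figure D1:**
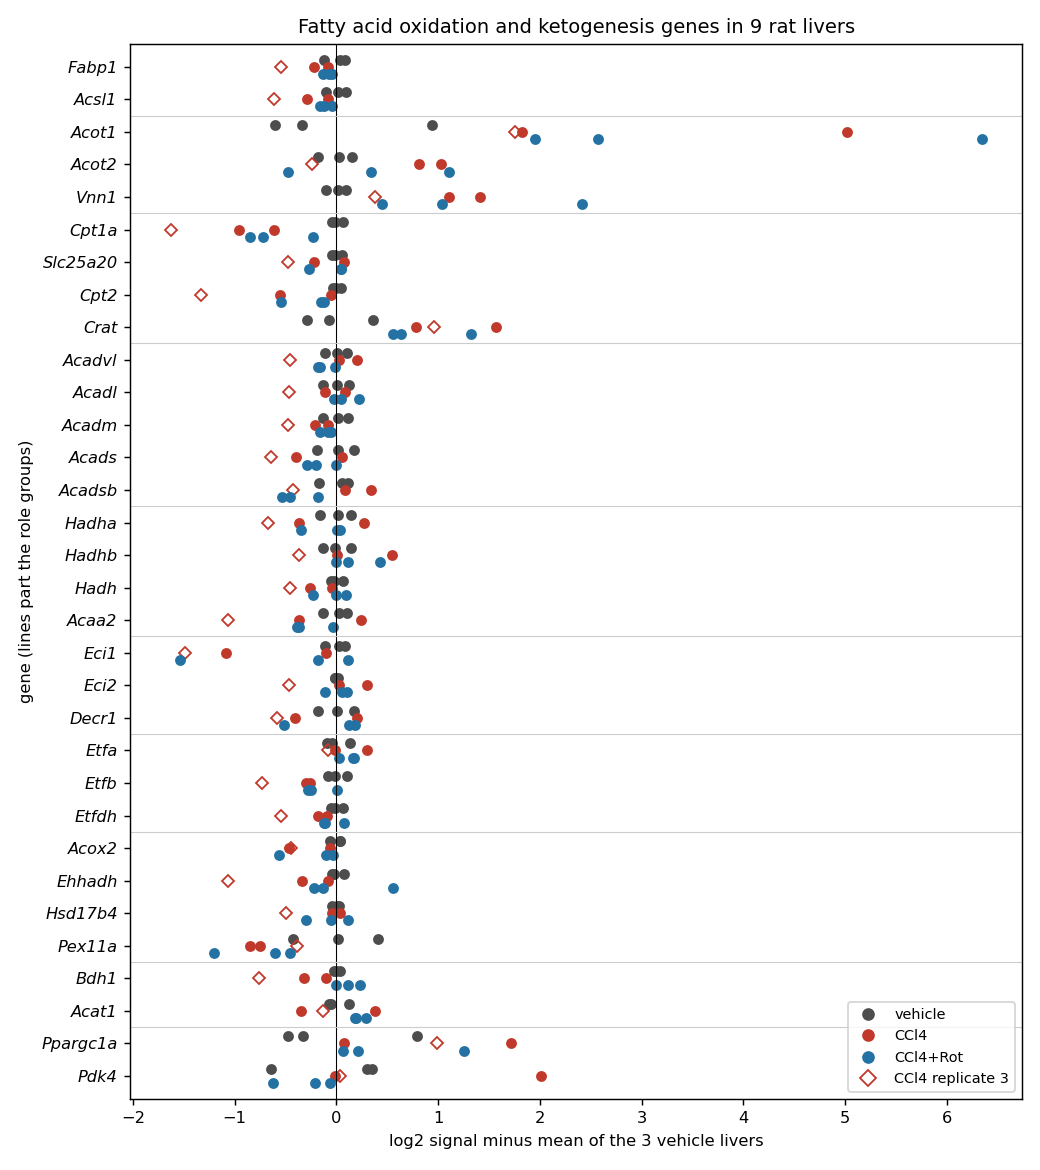
Each point is 1 liver, placed at its log2 signal minus the mean of the 3 vehicle livers, for the 32 genes in the order of their roles. CCl4 replicate 3, drawn as an open diamond, is the lowest of the 9 livers for 20 genes, and Cpt1a, Crat, Vnn1 and Acot1 have all 3 CCl4 livers on one side of the vehicle livers.

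In the carnitine shuttle, Cpt1a, which forms acylcarnitine at the outer mitochondrial membrane and is the main point of control of the pathway, read 13.70, 13.81 and 13.73 in vehicle livers, 12.79, 13.13 and 12.12 in CCl4 livers, and 13.52, 12.90 and 13.03 in CCl4+Rot livers. All 3 CCl4 livers, and all 3 CCl4+Rot livers, lay below the lowest vehicle liver. The change with CCl4 was -1.06 (SE 0.29, limma adjusted p = 0.252), and -0.78 without replicate 3. The other probe set of Cpt1a gave -1.29 (adjusted p = 0.218) and also did not overlap between CCl4 and vehicle, but on it the highest CCl4+Rot liver, at 11.87, lay above the lowest vehicle liver, at 11.75. A limma fit with a trended prior and robust variance called both probe sets (adjusted p = 0.0426 and 0.0181), and so stood on the other side of the threshold.

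Crat, the carnitine acetyltransferase that buffers acetyl-CoA, was the one shuttle gene with the opposite direction. Its signal was 8.12, 8.56 and 7.91 in vehicle livers, 8.98, 9.77 and 9.16 in CCl4 livers, and 8.83, 8.75 and 9.52 in CCl4+Rot livers. Every liver that had received CCl4 was above every vehicle liver, though Crat was called present on only 2 of the 3 CCl4 arrays. The change with CCl4 was 1.11 (SE 0.314, adjusted p = 0.262) and 1.18 without replicate 3.

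Cpt2, which turns acylcarnitine back into acyl-CoA at the inner membrane, read 11.63, 11.60 and 11.68 in vehicle livers and 11.08, 11.58 and 10.31 in CCl4 livers. The groups did not overlap, yet CCl4 replicate 2 lay only just below the lowest vehicle liver. The change was -0.65 (SE 0.316, adjusted p = 0.451), and -0.31 without replicate 3. The carrier of the shuttle, Slc25a20, had a change of -0.21, or -0.08 without replicate 3, with overlapping groups.

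Of the genes that bring in and activate fatty acids, Fabp1, the abundant fatty acid-binding protein of the hepatocyte, read 15.34, 15.49 and 15.54 in vehicle livers, 15.37, 15.24 and 14.91 in CCl4 livers, and 15.33, 15.41 and 15.38 in CCl4+Rot livers. Acsl1, a long-chain acyl-CoA synthetase, had a change of -0.33 with CCl4, beside -0.28 for Fabp1, and for both genes the CCl4 livers overlapped with vehicle on these probe sets. Without replicate 3 the changes were -0.19 and -0.15. Another bright probe set of Acsl1 gave -0.55 (SE 0.197, adjusted p = 0.343), or -0.41 without replicate 3, and did not overlap in either case.

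Both thioesterases and Vnn1 had higher means in CCl4 livers. Vnn1, a pantetheinase that breaks down a precursor of coenzyme A, read 9.30, 9.42 and 9.50 in vehicle livers, 10.51, 10.82 and 9.79 in CCl4 livers, and 10.45, 9.86 and 11.82 in CCl4+Rot livers. No treated liver overlapped with vehicle, but the treated livers spread over a range of 9.79 to 11.82. The change with CCl4 was 0.97 (SE 0.497, adjusted p = 0.468) and 1.26 without replicate 3.

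Acot1, a cytosolic thioesterase that frees the fatty acid from CoA, was called absent on all 3 vehicle arrays (4.25, 2.71 and 2.98), present on 2 of 3 CCl4 arrays (5.14, 8.33 and 5.07, the last absent) and present on 1 of 3 CCl4+Rot arrays (5.27, 5.89 and 9.66, the last present). As vehicle was not above background, no fold was measured. Against a floor set by the lowest signal called present on each vehicle array, the mean was 6.23-fold higher in CCl4 livers. In CCl4+Rot livers it was 10.6-fold higher. That floor is the lowest of all present signals, so these folds are not lower limits. The means were carried largely by CCl4 replicate 2 and CCl4+Rot replicate 6. These folds are for the means of all 3 livers and were not tested. The fitted log2 difference from vehicle, which uses no floor, was 2.86 with CCl4 (limma adjusted p = 0.431) and 1.79 without CCl4 replicate 2. With both agents it was 3.63 (limma adjusted p = 0.504), and 2.27 without CCl4+Rot replicate 6. Under quantile normalization or median centring, CCl4 and vehicle overlapped. Acot2, its mitochondrial relative, read 9.99, 10.20 and 10.32 in vehicle livers, 10.98, 11.20 and 9.93 in CCl4 livers, and 10.51, 9.69 and 11.28 in CCl4+Rot livers. CCl4 replicate 3 read below the lowest vehicle liver while replicates 1 and 2 read above the highest, and the change was 0.54 (SE 0.465), or 0.93 without that liver. Acot1 and Acot2 are close copies of each other, and whether their probes tell them apart was not tested.

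In the mitochondrial cycle, all 5 acyl-CoA dehydrogenases had lower means in CCl4 livers. The range was narrow, from -0.33 for Acads to -0.01 for Acadsb, and none of the 5 separated from vehicle. Without CCl4 replicate 3, Acadvl and Acadsb had changes of 0.12 and 0.20. The later steps, Hadha and Hadhb of the trifunctional protein, the dehydrogenase Hadh and the thiolase Acaa2, ranged from -0.39 for Acaa2 to 0.06 for Hadhb, again with overlapping groups. Without CCl4 replicate 3, Acaa2 was at -0.06 and Hadhb at 0.28, and the 4 genes ranged from -0.15 to 0.28.

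Among the auxiliary enzymes that handle unsaturated chains, Eci1, an enoyl-CoA isomerase, had the widest spread between rats. It read 12.79, 12.85 and 12.65 in vehicle livers, 11.68, 12.66 and 11.28 in CCl4 livers, and 12.58, 11.23 and 12.88 in CCl4+Rot livers. Each treated group held a liver close to vehicle. CCl4 replicates 1 and 3 and CCl4+Rot replicate 5 were more than 2-fold below the vehicle mean. The change with CCl4 was -0.89 (SE 0.495, adjusted p = 0.498), or -0.59 without replicate 3 (its other probe set was absent on every array), while Eci2 and Decr1 were at -0.05 and -0.26.

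Of the electron transfer genes, Etfb, a subunit of electron transfer flavoprotein, read 13.14, 13.33 and 13.21 in vehicle livers and 12.93, 12.97 and 12.50 in CCl4 livers. Its groups did not overlap, with a change of -0.42 (SE 0.187, adjusted p = 0.415). Etfdh, which hands the electrons to ubiquinone, likewise did not overlap, at -0.27, and both kept this separation without CCl4 replicate 3, at -0.27 for Etfb and -0.14 for Etfdh. The partner subunit Etfa was at 0.07.

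All 4 peroxisomal genes had lower means in CCl4 livers. Ehhadh, the bifunctional enzyme induced by PPAR alpha, read 12.89, 12.79 and 12.77 in vehicle livers, 12.48, 12.73 and 11.75 in CCl4 livers, and 12.69, 12.60 and 13.37 in CCl4+Rot livers. CCl4 and vehicle did not overlap, by a narrow margin at CCl4 replicate 2, with a change of -0.49 (SE 0.309, adjusted p = 0.539) that was -0.21 without replicate 3. Pex11a, a peroxisome membrane protein that promotes division, read 9.39, 9.83 and 10.22 in vehicle livers, 8.96, 9.06 and 9.43 in CCl4 livers, and 9.36, 8.61 and 9.21 in CCl4+Rot livers. Here CCl4 replicate 3 was the highest of its group and overlapped with vehicle, and the change was -0.66 (SE 0.295, adjusted p = 0.418), or -0.80 without it. On the other, dimmer probe set of Pex11a, replicate 3 was instead the lowest CCl4 liver (7.37, 7.64 and 7.07), CCl4 and vehicle did not overlap, and the change was -0.85 (SE 0.4). Acox2, an oxidase of bile acid precursors, was at -0.33. Hsd17b4, the D-bifunctional protein, was at -0.17, which became 0 to 2 decimals without replicate 3.

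Of the ketone body genes, Bdh1, which interconverts acetoacetate and beta-hydroxybutyrate, read 12.51, 12.53 and 12.57 in vehicle livers, 12.22, 12.43 and 11.78 in CCl4 livers, and 12.77, 12.65 and 12.53 in CCl4+Rot livers. On this probe set CCl4 lay below both other groups without overlap, though CCl4 replicate 2 was only just below the lowest vehicle liver. The change with CCl4 was -0.39 (SE 0.2, adjusted p = 0.467), and -0.21 without replicate 3. On the other probe set of Bdh1, CCl4 (11.33, 11.41 and 10.93) overlapped with vehicle (11.67, 11.55 and 11.37), with a change of -0.30. Acat1, the mitochondrial acetoacetyl-CoA thiolase, was at -0.03.

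Of the regulators, Pdk4, the kinase that switches off pyruvate dehydrogenase when fat is burned, read 10.55, 11.54 and 11.49 in vehicle livers, 13.21, 11.18 and 11.23 in CCl4 livers, and 10.98, 11.13 and 10.57 in CCl4+Rot livers. One CCl4 liver, replicate 1, carried the higher mean, and the groups overlapped, with a change of 0.68 (SE 0.568) that was 0.02 without that liver. Ppargc1a, a coactivator of PPAR alpha, was called present on CCl4 replicate 1 alone, at 5.11, and absent on the other 8 arrays, where it read 4.56 to 6.75. The groups overlapped, and no fold is given.

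**Figure D2:**
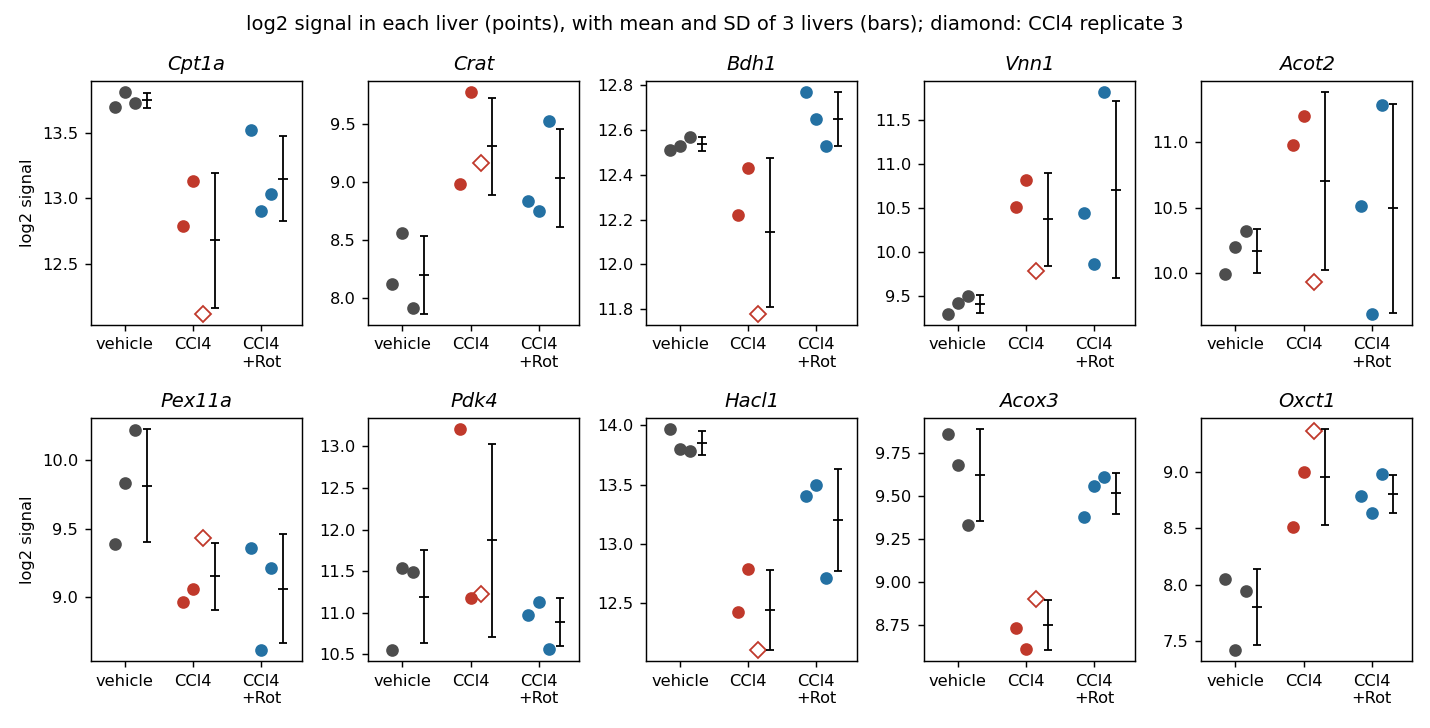
Points are the log2 signals of single livers, with the mean and SD of 3 livers as bars, for 7 genes of the set and for Hacl1, Acox3 and Oxct1 of the wider pathway. The vertical axes differ between genes and do not start at 0. Cpt1a and Bdh1 are tight in vehicle livers and lower in all 3 CCl4 livers, whereas the Pdk4 mean of CCl4 livers is set by 1 liver at 13.21.

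To determine what rottlerin added, CCl4+Rot livers were compared with CCl4 livers, a comparison that uses the same CCl4 arrays as the one above. Bdh1 was higher and Pdk4 was lower in all CCl4+Rot livers, and the other 30 genes overlapped between both groups. In all, 25 genes had higher means and 7 lower means in CCl4+Rot livers, with a median log2 change of 0.17, against -0.12 over all probe sets and 0.02 over those present on all 9 arrays, of which 53.8% were higher and 46.2% lower. No gene of the set was called, while limma called 1 probe set, 0.00322% of all. At an unadjusted p below 0.05, 1 gene was higher (Bdh1) and 0 were lower, against 1.97% and 4.65% of all probe sets, and the lowest adjusted p in the set was 0.749. Groups did not overlap for 1 gene that was higher and 1 that was lower, against 4.73% and 6.88% of all probe sets and 8.0% and 4.89% of those present on all 9 arrays. Without CCl4 replicate 3 the median was 0.04, with 20 genes higher and 12 lower, and with array weights it was -0.08.

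Bdh1 had a change of 0.51 with rottlerin (SE 0.2, adjusted p = 0.749), and 0.32 without CCl4 replicate 3, where the groups again did not overlap. Its other probe set, at 0.35, did not overlap either. For Pdk4 the change was -0.98 (SE 0.568, adjusted p = 0.765), and -1.25 for its other probe set, but CCl4 replicates 2 and 3, at 11.18 and 11.23, stood only just above the highest CCl4+Rot liver at 11.13. Without CCl4 replicate 1, the change was -0.31.

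Cpt1a had a change of 0.47 with rottlerin (SE 0.29, adjusted p = 0.765) and 0.19 without CCl4 replicate 3, with overlapping groups. Its other probe set gave 0.67, without overlap. Ehhadh was at 0.57, Cpt2 at 0.38 and Crat at -0.27, and without replicate 3 the values were 0.28, 0.04 and -0.34. For Vnn1 the change was 0.34 (SE 0.497), and it was -0.22 without CCl4+Rot replicate 6. The acyl-CoA dehydrogenases ranged from -0.38 for Acadsb to 0.25 for Acadl, and the 4 genes of the later mitochondrial steps from 0.12 to 0.21. Without CCl4 replicate 3, the dehydrogenases ranged from -0.60 for Acadsb to 0.10 for Acadl. The later steps then ranged from -0.20 to 0.10, with 3 of 4 genes lower.

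**Figure D3:**
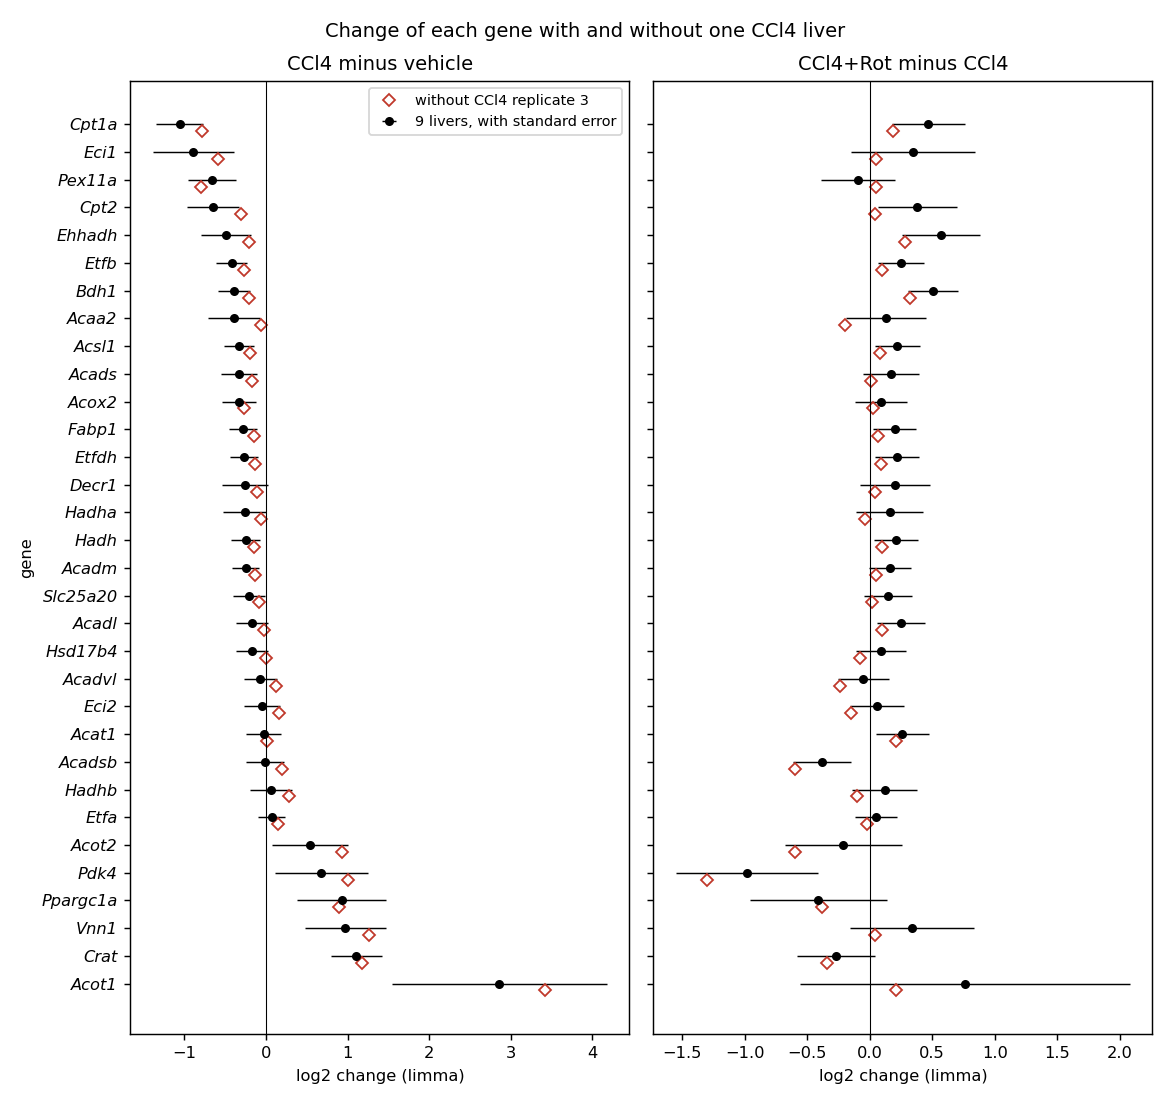
Black points are the limma log2 changes from all 9 livers with their standard errors, and open diamonds the changes without CCl4 replicate 3, for CCl4 minus vehicle on the left and CCl4+Rot minus CCl4 on the right. For most genes the diamonds lie closer to 0 than the points in both panels, whereas genes such as Crat, Vnn1, Pdk4 and Pex11a lie farther from 0 on the left. For Acot1, which was absent in vehicle livers, the fitted change on the left is not a measured fold.

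Livers given both agents were then compared with vehicle livers, which share arrays with the first comparison. Here 12 genes had higher and 20 lower means, with a median log2 change of -0.07, against 0.01 over all probe sets and -0.01 over those present on all 9 arrays, of which 49.1% were higher and 50.9% lower. No gene of the set was called, beside 8 probe sets, 0.0258% of all, and the lowest adjusted p was 0.504. At an unadjusted p below 0.05, 3 genes were higher and 1 was lower, against 5.63% and 2.68% of all probe sets. Groups did not overlap for 4 genes upward (Acot1, Vnn1, Crat and Acat1) and 4 downward (Cpt1a, Cpt2, Acadsb and Pex11a), against 11.9% and 9.15% of all probe sets, and 15.4% and 14.2% of those present on all 9 arrays. The changes were 1.30 for Vnn1 (SE 0.497, adjusted p = 0.535), 0.84 for Crat (SE 0.314, adjusted p = 0.521), -0.60 for Cpt1a (SE 0.29, adjusted p = 0.677) and -0.75 for Pex11a (SE 0.295, adjusted p = 0.55). The other probe sets gave -0.62 for Cpt1a, with overlap, and -1.29 for Pex11a, without. Acat1 and Acadsb were at 0.23 and -0.39, and Bdh1 at 0.12. On the other probe set of Acat1, at 0.20, CCl4+Rot overlapped with vehicle. Under median centring, 2 genes did not overlap upward and 10 downward, and Crat and Acat1 overlapped.

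Many genes of the set ranked the CCl4 livers alike. Within the CCl4 group, 26 of the 32 genes were lowest in replicate 3 and 27 were highest in replicate 2, against 39.6% and 30.1% of the probe sets present on all 9 arrays. Within the CCl4+Rot group, 21 genes were lowest in replicate 5, against 30.9%. There 16 were highest in replicate 6, against 37.2%, and 13 in replicate 4, against 31.9%. In vehicle livers the ranks were split, with 16, 3 and 13 genes lowest and 5, 15 and 12 highest in replicates 3 to 5. Hepatocyte markers stood 0.50 below the vehicle mean in CCl4 replicate 3 (all 12 below) and between -0.07 and 0.08 in the other treated livers. In CCl4+Rot replicate 5, whose median for the 32 genes was -0.17, they were at 0.01. Between CCl4 and vehicle, the median change of the hepatocyte markers was -0.15. It was 0.02 without CCl4 replicate 3, 0.03 under quantile normalization and -0.51 under median centring. The probe sets present on all 9 arrays are mostly dimmer than the set, and a share among equally bright probe sets was not computed.

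The markers of liver zones and of other cells are given beside these levels. Markers of periportal hepatocytes, the zone where fatty acid oxidation is strongest, were all lower in CCl4 livers (11 of 11, median -0.55, or -0.34 without replicate 3) and in CCl4+Rot livers (11 of 11, median -0.49). Per liver their median was -0.26, -0.42 and -0.91 in CCl4 replicates 1 to 3, and -0.25, -0.21 and -0.60 in CCl4+Rot replicates 4 to 6. Pericentral markers were at -0.31, 0.12 and -0.68 in the CCl4 livers and between 0.09 and 0.24 in the CCl4+Rot livers. Markers of myofibroblasts and stellate cells were higher in CCl4 livers than in vehicle livers for 13 of 13 genes (median 0.96). Of the macrophage markers, 5 of 7 were higher (median 0.55). With both agents, 13 of 13 (median 1.18) and 7 of 7 (median 0.84) had means above vehicle. The rottlerin change was upward for 9 myofibroblast and stellate markers and downward for 4 (median 0.27). For macrophage markers it was upward for 6 and downward for 1 (median 0.18). The part of these differences in the levels of the oxidation genes was not tested.

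**Figure D4:**
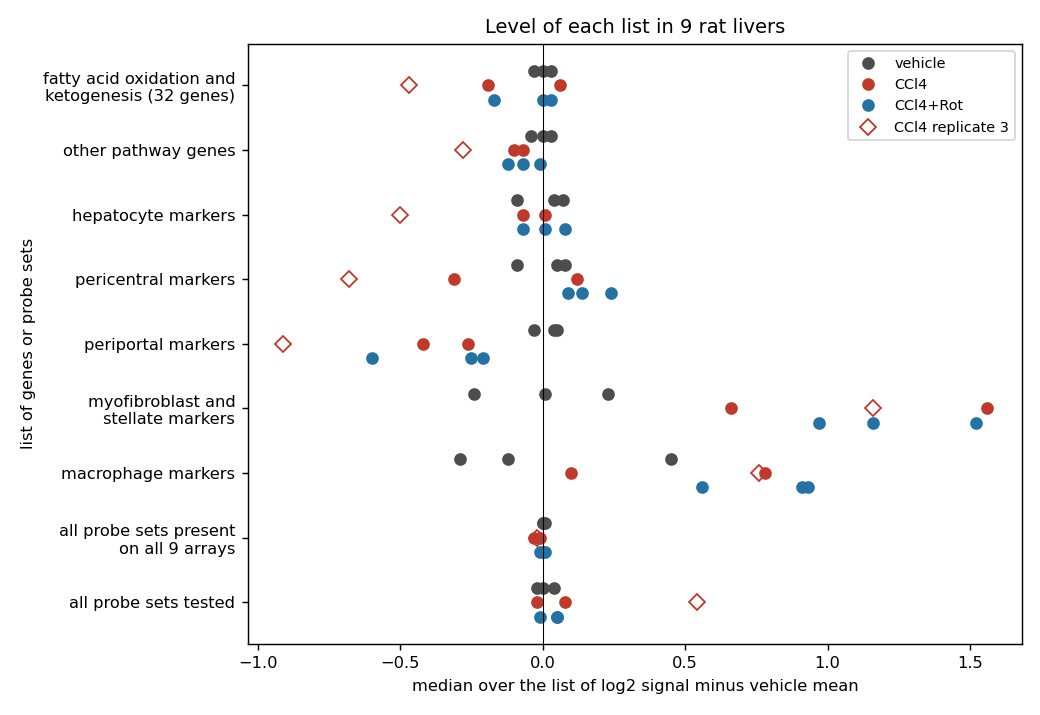
Each point is 1 liver and shows the median, over a list, of the log2 signal minus the vehicle mean. In CCl4 replicate 3, drawn as an open diamond, the oxidation genes (-0.47), hepatocyte markers (-0.50) and periportal markers (-0.91) are low while all probe sets tested stand at 0.54 and those present on all 9 arrays at -0.02.

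Of the wider pathway, 86 further genes of fatty acid oxidation, ketogenesis and PPAR alpha targets were measured. With CCl4, 37 had higher and 49 lower means (median -0.05). Groups did not overlap for 11 and 21, against 11.1% and 7.14% of all probe sets and 11.2% and 14.2% of those present on all 9 arrays. Limma called none, with 9 and 18 at an unadjusted p below 0.05, against 8.64% and 3.72% of all probe sets. Of the 86 genes, 63 were present on all 9 arrays, against 36.2% of all probe sets. The share at an unadjusted p below 0.05 among probe sets present on all 9 arrays was not computed. Without CCl4 replicate 3, 42 were higher and 44 lower, and 13 and 22 did not overlap, and under median centring 21 were higher and 65 lower.

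With rottlerin, 44 had higher and 42 lower means. Groups did not overlap for 5 in each direction, against 4.73% and 6.88% of all probe sets and 8.0% and 4.89% of those present on all 9 arrays. None was called, with 4 and 6 at an unadjusted p below 0.05, against 1.97% and 4.65%. Without CCl4 replicate 3, 43 were higher and 43 lower, and 6 and 11 did not overlap, and under median centring 65 were higher and 21 lower. Between CCl4+Rot and vehicle none was called either, with 4 and 9 at an unadjusted p below 0.05, against 5.63% and 2.68%. Groups did not overlap for 7 and 16, against 11.9% and 9.15% of all probe sets and 15.4% and 14.2% of those present on all 9 arrays.

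The genes of the wider pathway described next were chosen for the smallest limma p in each comparison. Their separation between groups therefore follows in part from this choice. Hacl1, which shortens phytanic acid by alpha-oxidation in peroxisomes, read 13.97, 13.80 and 13.78 in vehicle livers, 12.43, 12.79 and 12.11 in CCl4 livers, and 13.40, 13.50 and 12.71 in CCl4+Rot livers. CCl4 lay below vehicle without overlap, by -1.41 (SE 0.268, limma adjusted p = 0.199), and CCl4+Rot lay between, 0.76 above CCl4. Acox3, a peroxisomal oxidase, read 9.86, 9.68 and 9.33 in vehicle livers, 8.73, 8.61 and 8.90 in CCl4 livers, and 9.38, 9.56 and 9.61 in CCl4+Rot livers. CCl4 was separate from both other groups, by -0.88 from vehicle (SE 0.19, adjusted p = 0.218) and with a rottlerin change of 0.77 (adjusted p = 0.635) that was 0.85 without CCl4 replicate 3.

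Acsl3, a long-chain acyl-CoA synthetase of the endoplasmic reticulum and lipid droplets, read 8.79, 8.63 and 8.78 in vehicle livers, 10.08, 9.78 and 9.72 in CCl4 livers, and 9.17, 9.20 and 9.50 in CCl4+Rot livers. The 3 groups did not overlap, with changes of 1.13 with CCl4 (SE 0.177, adjusted p = 0.171) and -0.57 with rottlerin (adjusted p = 0.724). For the cytosolic thiolase Acat2, which feeds sterol synthesis, all 3 CCl4 livers (10.38, 11.07 and 11.07) lay above every other liver, while vehicle (8.81 to 9.69) and CCl4+Rot (9.08 to 10.21) overlapped. Its changes were 1.63 with CCl4 (SE 0.37, adjusted p = 0.224) and -1.20 with rottlerin (adjusted p = 0.724). Oxct1, the enzyme of ketone body use that hepatocytes largely lack, read 8.05, 7.42 and 7.95 in vehicle livers, 8.51, 9.00 and 9.36 in CCl4 livers, and 8.79, 8.64 and 8.98 in CCl4+Rot livers. It was 1.15 higher with CCl4 (SE 0.273, adjusted p = 0.231) and 0.99 higher in CCl4+Rot than in vehicle (adjusted p = 0.355). The robust fit called Hacl1, Acox3, Acsl3, Acat2 and Oxct1 in CCl4 against vehicle, with adjusted p between 0.00813 and 0.0419. Over all 31042 probe sets that fit called 348 in this comparison. As these genes were chosen by their p on the same arrays, their call by another fit is not a separate test.

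Slc27a5, a bile acid and very long-chain acyl-CoA synthetase, was 0.47 higher with rottlerin (SE 0.163, adjusted p = 0.724), without overlap. Between CCl4+Rot and vehicle, the lipase Lpl was at 2.18 (SE 0.476, adjusted p = 0.232), Acsm5, a medium-chain acyl-CoA synthetase, at 0.99 (adjusted p = 0.31), Bdh2, a cytosolic dehydrogenase, at -0.71 (adjusted p = 0.294) and Angptl4, an inhibitor of Lpl, at -1.22 (adjusted p = 0.39). All 4 were separate from vehicle.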

How the data were processed

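Liver RNA of 9 rats was hybridised to Affymetrix GeneChip rat expression arrays. The authors deposited a table of log2 signals with detection calls per array, made with MAS5 and affy per the submitters' processing notes (versions, the MAS5 settings and the genome build of the annotation were not given in the sources used here). On each array the 2% trimmed mean of the linear signal was 500, a scaling that sets the signals of an array relative to each other. From 31099 probe sets, 57 controls were left out. Groups were compared in R 4.3.3 with limma 3.58.1 (statmod 1.5.0), fitting 3 group means to all 9 arrays, with Benjamini-Hochberg adjustment. The scripts were tested on simulated data. A gene absent in every array of one group got a fold against a floor. The floor was the lowest signal called present on each array or the gene's own signal, whichever was higher. Genes were described in full where groups did not overlap and differed at least 1.5-fold, with others added by role. Of the wider pathway, the 5 genes with the smallest p per comparison were named. The set, the other gene lists and the choices of test were made with earlier results of these data known. Alternatives were quantile normalization, median centring, array weights, filters on dim or absent probe sets, averaging the probe sets of each gene, a trended and robust fit, fits of 2 groups only, the methods' t-test, the replicate block and leaving out each array. Precision was limited by 3 arrays per group.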

Additional observations from a re-analysis of the deposited data

How the results depend on the processing

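Calls depended on the fit and on single livers. Probe sets called numbered 0 for CCl4 against vehicle, 1 for CCl4+Rot against CCl4 and 8 for CCl4+Rot against vehicle. Under the trended and robust fit they were 348, 1 and 241, with at least 3 present calls 78, 0 and 63, without the lowest 30% of probe sets 4, 0 and 22, with array weights 0, 1 and 73, with quantile normalization 0, 0 and 3, with median centring 0, 1 and 2, and with fits of 2 groups 0, 0 and 1. The methods' t-test gave 1774, 851 and 2126 at an unadjusted p below 0.05 and 1.5-fold, and 0 in each comparison after Benjamini-Hochberg adjustment. Leaving out single arrays gave 0 to 0, 0 to 2 and 0 to 24 calls, the 24 without CCl4 replicate 2. The cause was not tested.

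The median change of the 32 genes was -0.61 under median centring for CCl4 against vehicle, and ranged from -0.34 to -0.07, 0.04 to 0.31 and -0.11 to 0.03 with single arrays left out. Genes whose groups did not overlap numbered 9, 2 and 8, and 9 to 20, 2 to 15 and 8 to 15 with single arrays left out, where groups of 2 separate more easily; 20 and 15 were reached without CCl4 replicate 2. Under median centring the second was 1. Among the genes followed singly with rottlerin, array weights reversed Cpt2 (-0.06), Vnn1 (-0.14) and Acot1 (-0.83), and the mean of its probe sets reversed Acsl1 (-0.04). Leaving out CCl4+Rot replicate 6 reversed Vnn1 (-0.22) and Acot1 (-0.60), which ranged up to 0.76 and 1.84 with other arrays left out. In the rest of the set, leaving out CCl4 replicate 3 reversed Hadha (-0.04), Hadhb (-0.10), Acaa2 (-0.20), Eci2 (-0.15), Etfa (-0.02), Hsd17b4 (-0.08) and Pex11a (0.05).

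With the replicate number as a random block (estimated correlation -0.0327), 0, 1 and 8 probe sets were called. Same-numbered arrays of different groups had deviations that correlated at -0.09 to 0, so the numbers were not taken as pairs.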
